A study of Homo sapiens with 8 samples.

Results

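The SOCS family comprises intracellular proteins that switch off cytokine signalling, and 8 members were read here, SOCS1 to SOCS7 and CISH. They were read together with STAT3, a transcription factor that cytokines activate, and PIM1, a serine/threonine kinase gene that STAT3 is known to activate. These 10 genes were chosen by symbol, matched to the Ensembl identifiers of the count files, out of 60652 gene rows. All 10 had enough reads to enter the test, as did 16606 genes in all. They were measured by poly(A) RNA sequencing in HEK293T cells, an established human line of embryonic kidney origin, carrying a TRE3G-GFP reporter, in which tet operator sites drive green fluorescent protein. All cells received plasmids for an activator and a guide RNA and were sorted for mCherry and BFP fluorescence 2 days later. The activators were dCasMINI-VPR, a compact Cas protein without cutting activity fused to the VPR activation domains, and dCas12a-VPR, a larger protein fused to the same domains. Each was given a non-targeting guide (sgNT for dCasMINI-VPR, crNT for dCas12a-VPR) or a guide named Tet (sgTet, crTet), which makes 4 groups of 2 libraries. Every group thus carried the reporter, an activator and a guide, and no group went without transfection. The labels do not say whether the libraries of a group came from separate transfections, so the p-values measure the spread between these libraries, which may be technical.

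Cytokines such as interleukin 6 bind receptors whose tails carry JAK kinases. The kinases phosphorylate STAT proteins, which enter the nucleus and switch on target genes that include several SOCS genes themselves. CISH, SOCS1, SOCS2 and SOCS3 are the members best known as feedback inhibitors: the kinase inhibitory region of SOCS1 and SOCS3 blocks JAKs, while the SOCS box of the whole family recruits elongins and a cullin to mark bound proteins for degradation. STAT proteins bind a palindromic element with a short spacer, TTCNNNGAA in the usual form.

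Promoter windows show which members carry such an element close to a transcription start. RefSeq windows on GRCh38.p14, each 300 bases long from 250 before to 50 after a start, were given for 7 of the 10 members and not for SOCS2, SOCS5 and SOCS7. Windows of CISH, STAT3 and SOCS3 are shown 5′ to 3′ on the gene's strand, CISH because it held the element and the others because their transcripts differed between groups below. Capitals mark each TTCNNNGAA. The CISH window is chr3:50611725-50612024, minus strand, and spans the start of the gene in the annotation used for the counts below.
CISH: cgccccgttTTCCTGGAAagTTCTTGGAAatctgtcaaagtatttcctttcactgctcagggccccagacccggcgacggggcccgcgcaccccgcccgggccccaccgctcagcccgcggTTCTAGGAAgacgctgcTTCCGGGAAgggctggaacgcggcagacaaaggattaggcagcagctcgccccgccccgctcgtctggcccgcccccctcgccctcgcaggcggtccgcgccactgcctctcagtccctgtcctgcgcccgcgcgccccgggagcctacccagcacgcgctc
The STAT3 window is chr17:42388393-42388692, minus strand, and also spans the annotated start.
STAT3: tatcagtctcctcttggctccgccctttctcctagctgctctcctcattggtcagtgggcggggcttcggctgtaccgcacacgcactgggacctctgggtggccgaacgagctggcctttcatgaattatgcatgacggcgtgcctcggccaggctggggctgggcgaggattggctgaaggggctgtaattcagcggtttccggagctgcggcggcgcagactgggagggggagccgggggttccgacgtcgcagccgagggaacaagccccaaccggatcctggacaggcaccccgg
The SOCS3 window is chr17:78360876-78361175, minus strand, and belongs to a RefSeq start upstream of the one at 78360077 in GENCODE 29.
SOCS3: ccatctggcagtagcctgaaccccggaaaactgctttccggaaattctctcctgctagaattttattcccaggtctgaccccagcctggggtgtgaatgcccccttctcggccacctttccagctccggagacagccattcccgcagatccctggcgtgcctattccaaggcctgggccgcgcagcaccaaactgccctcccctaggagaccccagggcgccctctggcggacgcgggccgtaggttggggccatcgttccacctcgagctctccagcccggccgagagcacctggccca
CISH had 4 matches, whose first bases lie at -241, -230, -129 and -112 from the start. Each reads the same way on both strands apart from its spacer, so a search of either strand finds it. Of 35116 windows of the same length, 7.66% held at least 1 match and 7 windows (0.0199%) held 4 or more. The windows of the other 6 members, including a further SOCS3 window at chr17:78359618-78359917, held none. The same windows were searched for TTCNNNNGAA (6.44% of all windows), the AP-1 element TGANTCA (7.71%) and the cyclic AMP response element TGACGTCA (1.85%), and no member window held any of them. The SOCS3 windows do not reach the annotated start of the gene, and the PIM1 window ends just before that of PIM1, so the letters around those starts were not searched in full.

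The libraries held between 17474404 and 21081942 reads in genes, so that 3 reads in a library correspond to between 0.142 and 0.172 CPM, counting error alone. CPM are read counts scaled to a common library size, adjusted here by TMM factors. Reads that did not map made up a larger share in crNT, 14.4% and 12.7%, than elsewhere, where the share ran from 8.32% to 9.62%. Spread between replicates was largest in sgTet, where the chi-square per degree of freedom was 13.9, compared with 3.19 to 6.93 in the remaining groups. The reporter transcript rose with either Tet guide, from 3.83 to 1007 CPM with dCasMINI-VPR and from 2.71 to 756 CPM with dCas12a-VPR, which checks the guide labels. Summed markers typical of HEK293T ranged from 1269 to 1553 CPM over the libraries, with all 8 genes of that list detected. Most of this sum was IRS4 (811 to 1031 CPM). Of the 8 genes, 6 were called different over the 4 groups, against 14.3% of all genes tested. Summed levels of 6 haematopoietic genes ranged from 4.30 to 7.17 CPM with PTPRC at 0 reads, and those of 5 endothelial genes from 0.717 to 1.23 CPM. The 6 fibroblast genes summed to between 35.1 and 48.0 CPM, nearly all of it COL1A1 (32.4 to 44.4 CPM), while COL1A2 had 2 reads and DCN 17 reads over all libraries. The names of the deposited files share a prefix within each activator, so that activator and any preparation set cannot be told apart.

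Per length of transcript, the members spanned a wide range of abundance. STAT3 was the most abundant at 17.6 RPKM (CPM per kilobase of exon, mean over the 8 libraries), above 82.7% of the tested genes with a known length. PIM1 followed at 8.58 RPKM and SOCS4, a SOCS protein linked to growth factor receptors, at 6.71 RPKM. SOCS5 (2.37), SOCS6 (2.11) and the feedback member SOCS2 (2.11) came next. Of the other feedback inhibitors, SOCS1 stood at 1.48 RPKM, SOCS3 at 1.22 and CISH at 0.729, with SOCS7 at 0.827 between the last of these. CISH, the only member whose window held STAT elements, was the lowest of the 10 per length and ranked above 23.5% of tested genes. That place depends on its exon length of 5112 bases. In CPM, before division by length, CISH (3.73) stood above SOCS3 (3.33) and SOCS1 (2.655). In reads this means 527 for SOCS3 and 419 for SOCS1 over all 8 libraries, against 24371 for STAT3, so SOCS1 and SOCS3 were measured less precisely.

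**Figure D1:**
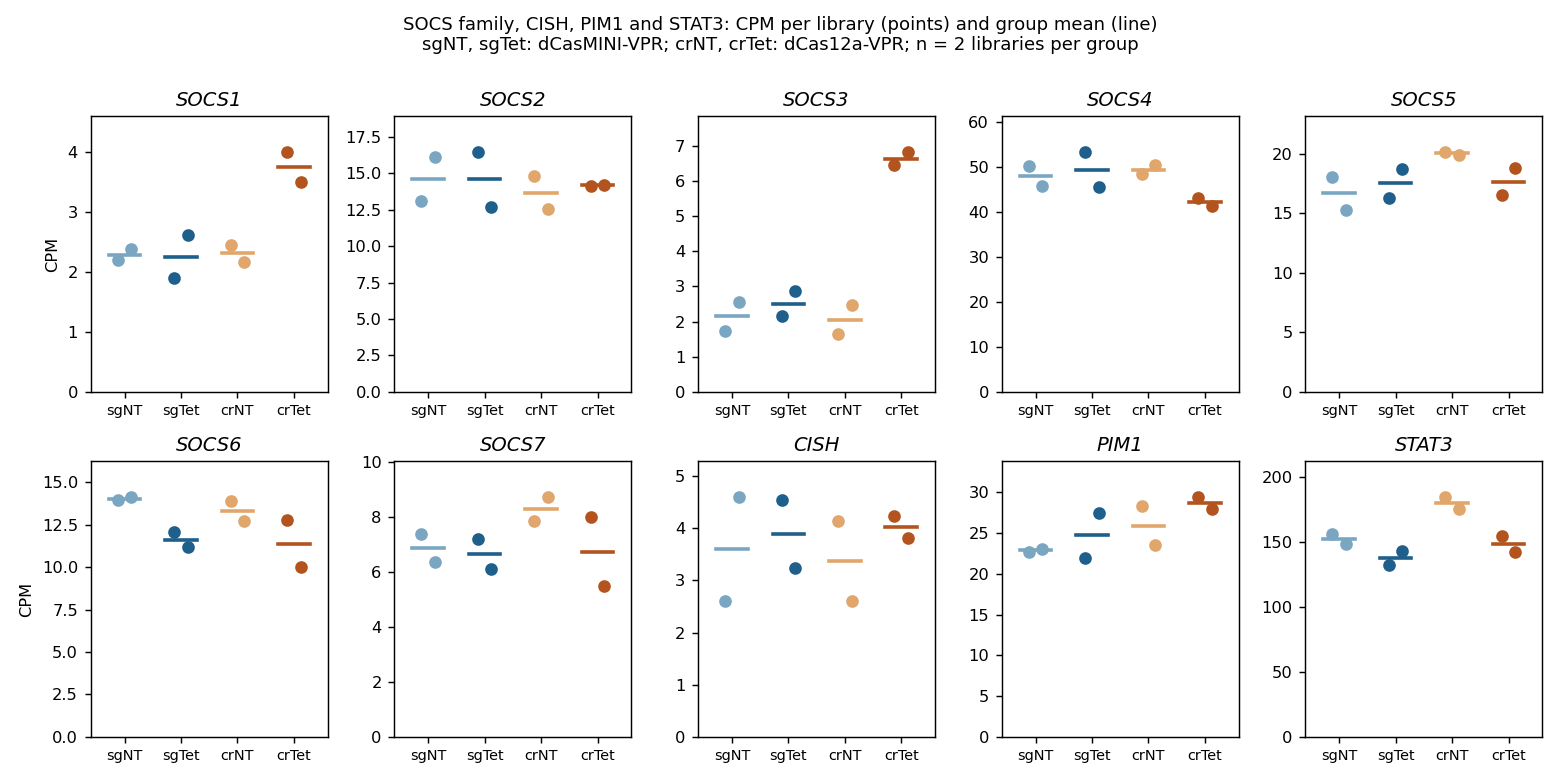
CPM of each of the 10 genes in the 8 libraries (points, vertical axis starting at 0 and scaled per gene) with the mean of each group (line) for sgNT, sgTet, crNT and crTet, 2 libraries each. SOCS3 stands at 6.44 and 6.82 CPM in crTet and at 2.86 CPM or less elsewhere, while STAT3 is highest in both crNT libraries.

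SOCS3 was the member that differed most between groups. It encodes the inhibitor that binds the shared receptor subunit gp130 and blocks JAK kinases there (ENSG00000184557.4, hg38 chr17:78356778-78360077, minus strand). The crTet libraries had 6.44 and 6.82 CPM, the crNT libraries 1.64 and 2.46, the sgNT libraries 1.74 and 2.55, and the sgTet libraries 2.15 and 2.86. Both crTet libraries lay above all 6 others, and the other 3 groups overlapped one another. In reads, 132 were counted in each crTet library and between 32 and 59 in each of the rest. The order of the means was crTet (6.63 ± 0.265, SD, n = 2), sgTet (2.50 ± 0.499), sgNT (2.15 ± 0.573) and crNT (2.05 ± 0.582), and no neighbours other than the first pair were separated.

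With dCas12a-VPR the Tet guide raised SOCS3 3.22-fold over the non-targeting guide (log2 fold change 1.69 ± 0.31, SE, 95% interval 1.06 to 2.31, edgeR quasi-likelihood test, Benjamini-Hochberg adjusted p = 7.226e-04 over all genes). In sorted bulk cells, more cells with the transcript and more transcript per cell cannot be told apart. Of the 10 members 2 passed this test, SOCS3 upward and STAT3 downward, where 6.32% of the 16606 genes tested were called, 3.56% higher and 2.75% lower. Among the 592 genes called higher in crTet, SOCS3 ranked 23 by size of change, and the median of those genes was 0.46. The call was lost in 1 of the 16 alternative settings that gave an adjusted p, the one without crNT replicate 1 (1.43, adjusted p = 0.0683). DESeq2 gave the same change (1.69 ± 0.36, unadjusted p = 2.21e-06) and no adjusted p, because its filter on mean counts left SOCS3 out. With dCasMINI-VPR no member was called, against 0.795% of all genes. There SOCS3 differed by 0.23 ± 0.33 (95% interval -0.44 to 0.90, adjusted p = 0.827), an interval that includes both a fall and a rise.

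Whether the SOCS3 response differed between the activators was tested directly. The difference of the guide effects was -1.46 ± 0.45 on the log2 scale (dCasMINI-VPR minus dCas12a-VPR, 95% interval -2.38 to -0.54), with an unadjusted p of 0.0028 and an adjusted p of 0.0918 by edgeR. No member passed this test, in which 1.35% of all genes were called. SOCS3 passed it without sgTet replicate 2 (-1.68, adjusted p = 0.0228), the only alternative in which it did. Between the Tet groups themselves, SOCS3 was lower in sgTet than in crTet, at 0.379-fold (-1.40 ± 0.30, 95% interval -2.01 to -0.79, adjusted p = 0.00397), and was the only member called there, against 4.28% of all genes. That call was lost in 1 of 17 alternatives, without sgTet replicate 1 (-1.21, adjusted p = 0.0613). Between the non-targeting groups SOCS3 differed by 0.06 (95% interval -0.63 to 0.74, adjusted p = 0.950).

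STAT3 moved the other way and by much less. It encodes the transcription factor that gp130 cytokines activate (ENSG00000168610.16, hg38 chr17:42313324-42388568, minus strand). The crNT libraries had 185 and 175 CPM, the sgNT libraries 157 and 149, the crTet libraries 155 and 142, and the sgTet libraries 132 and 143. The crNT libraries were the highest of the 8, and the remaining 3 groups formed an overlapping series below them. With dCas12a-VPR the Tet guide lowered STAT3 to 0.826-fold (-0.28 ± 0.08, 95% interval -0.43 to -0.12, adjusted p = 0.0268 by edgeR). Among 457 genes called lower in crTet it ranked 401 by size, and their median was -0.38. The call held in 13 of 17 alternatives and was lost without crNT replicate 1 (adjusted p = 0.383), crNT replicate 2 (0.120) or crTet replicate 2 (0.277), and with forward-strand reads alone (-0.23, adjusted p = 0.1197). With dCasMINI-VPR both sgTet libraries also lay below both sgNT libraries (-0.15 ± 0.08, 95% interval -0.31 to 0.01, adjusted p = 0.4505), and the effects of the 2 guides were not called different (0.13, 95% interval -0.09 to 0.35, adjusted p = 0.607).

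The level of STAT3 in crNT also entered the comparison of activators. With non-targeting guides the STAT3 difference, sgNT minus crNT, was -0.24 ± 0.08 (95% interval -0.40 to -0.08, adjusted p = 0.0541 by edgeR). No member was called in this comparison, where 7.68% of all genes were. Of 17 alternatives 6 brought STAT3 past the threshold, all with the same sign. Those were library size alone (adjusted p = 0.0461), a fit of these 4 libraries alone (8.05e-04), a replicate block (0.0406), the length and GC trend removed (0.0178), and leaving out sgTet replicate 1 (0.00728) or replicate 2 (0.00711). The crNT libraries, highest for STAT3, also had the largest unmapped share, and its part in this result was not tested. With Tet guides STAT3 differed by -0.11 (adjusted p = 0.493). Over the 4 groups at once, STAT3 (F = 8.95, adjusted p = 0.003605) and SOCS3 (F = 15.8, adjusted p = 8.804e-05) were the only 2 of 10 members called, against 14.3% of all genes. The STAT3 call was lost without crNT replicate 1 (F = 3.84, adjusted p = 0.155).

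**Figure D2:**
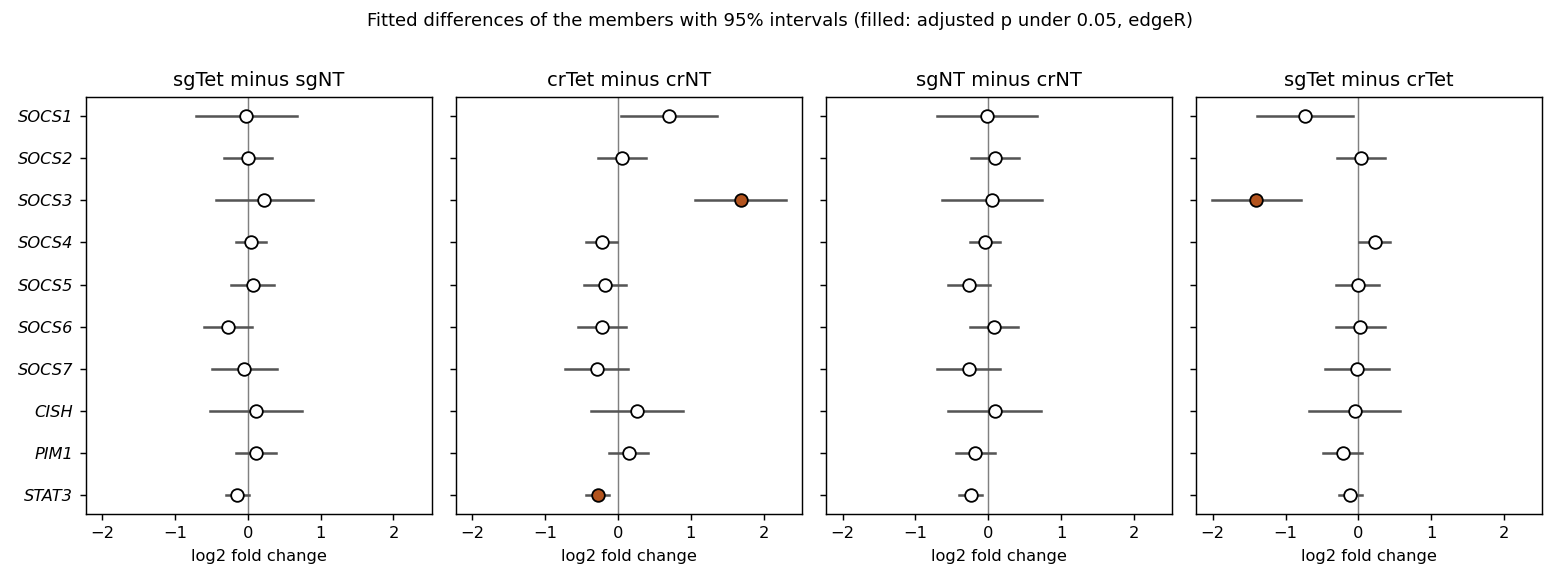
Log2 fold change of each of the 10 genes with its 95% interval in the guide and activator comparisons, filled where the edgeR adjusted p is under 0.05. SOCS3 is filled in the dCas12a-VPR guide comparison (1.69) and in the comparison of the Tet groups (-1.40), and STAT3 in the former alone (-0.28).

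SOCS1, the relative of SOCS3 that also has a kinase inhibitory region (hg38 chr16:11254405-11256200, minus strand), had its highest values in the same libraries. The crTet libraries had 4.001 and 3.51 CPM, the crNT libraries 2.46 and 2.17, the sgNT libraries 2.20 and 2.38, and the sgTet libraries 1.90 and 2.61. Both crTet libraries lay above all 6 others, and the other 3 groups overlapped. The change with dCas12a-VPR was 0.70 ± 0.32 (95% interval 0.04 to 1.36, unadjusted p = 0.0381) and did not pass after adjustment (adjusted p = 0.218 by edgeR). It was 0.48 with the trend of length and GC content removed, and the longest SOCS1 transcript is 69.1% GC. Between the Tet groups the SOCS1 difference, sgTet minus crTet, was -0.73 ± 0.32 (adjusted p = 0.209), and the effects of the 2 guides on it were not called different (-0.72, 95% interval -1.67 to 0.23, adjusted p = 0.475).

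The other feedback members that cytokines induce, SOCS2 and CISH, showed no separation of the guide groups. SOCS2 (hg38 chr12:93569814-93583487) limits growth hormone signalling. It ranged from 12.6 to 16.5 CPM over the 8 libraries, its 4 group means lay between 13.7 and 14.6 CPM, and the highest mean was 1.07 times the lowest. The interval of its guide effect with dCas12a-VPR was -0.28 to 0.38, and that with dCasMINI-VPR -0.33 to 0.33. CISH (hg38 chr3:50606490-50611831, minus strand), a target of STAT5, had 2.61 and 4.595 CPM in sgNT and 4.55 and 3.24 CPM in sgTet. The crNT libraries stood at 4.15 and 2.61 CPM, and those of crTet at 4.24 and 3.82 CPM. All its groups overlapped. Its guide effects were 0.26 (95% interval -0.37 to 0.89, adjusted p = 0.711) and 0.12 (-0.51 to 0.75, adjusted p = 0.914), which do not exclude changes of over 1.5-fold. Of the transcribed exons of CISH 4.26% overlap MAPKAPK3, and of those of SOCS2 4.09% overlap SOCS2-AS1. Reads in the ambiguous totals, which fall on more than 1 gene, were left out of the counts. The unstranded column gave 585 reads for CISH, the forward column 345 and the reverse column 323. For SOCS2 these were 2241, 1242 and 1147.

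SOCS4 to SOCS7, the members with long amino-terminal regions that are linked more to growth factor receptors than to cytokine feedback, passed none of the tests. SOCS4 (hg38 chr14:55027230-55049488) had 43.1 and 41.5 CPM in crTet, 48.4 and 50.5 in crNT, 50.2 and 45.7 in sgNT, and 53.3 and 45.5 with sgTet. Both crTet libraries lay below all 6 others. The difference from crNT was -0.23 ± 0.10 (95% interval -0.44 to -0.01, unadjusted p = 0.0373, adjusted p = 0.2155 by edgeR). It ran from -0.26 to -0.15 over the alternatives. SOCS4 had a fitted length and GC trend of 0.038 and 0.034 (log2) in crNT and of 0.016 and -0.0955 in crTet, in the same direction. Its difference between the Tet groups was called in 1 alternative alone, without sgTet replicate 2 (0.33, adjusted p = 0.0368).

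SOCS5 (hg38 chr2:46698952-46780245) had its highest values in crNT, 20.1 and 19.9 CPM, above the range of 15.3 to 18.8 CPM in the other 6 libraries. Its change with dCas12a-VPR was -0.18 (95% interval -0.47 to 0.11, adjusted p = 0.524 by edgeR) and ran from -0.275 to -0.08 over the alternatives. SOCS5 had a fitted length and GC trend of 0.054 and 0.051 (log2) in crNT and of -0.024 and -0.082 in crTet, in the same direction. SOCS6 (hg38 chr18:70288901-70330200) had 12.1 and 11.2 CPM in sgTet, below both sgNT libraries at 14.0 and 14.1 CPM (-0.28 ± 0.16, 95% interval -0.61 to 0.06, adjusted p = 0.509). It stood at 13.9 and 12.7 CPM in crNT and at 12.8 and 10.0 CPM in crTet, which overlapped. SOCS7, a member that binds signalling adaptors (hg38 chr17:38352228-38405593), ranged from 5.47 to 8.72 CPM, with both crNT libraries above both sgNT libraries. Its guide effects did not pass. They were -0.29 with dCas12a-VPR (95% interval -0.73 to 0.14, adjusted p = 0.486 by edgeR) and -0.05 with dCasMINI-VPR (-0.49 to 0.39, adjusted p = 0.953). Of the exons of SOCS5 2.11% overlap LINC01118.

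PIM1 (hg38 chr6:37170203-37175426) encodes a kinase that promotes survival and cell cycle entry. It had 29.4 and 27.98 CPM in crTet, 28.3 and 23.5 in crNT, 22.0 and 27.5 in sgTet, and 22.7 and 23.1 in sgNT. Neighbouring groups in this order overlapped. Its guide effects were 0.15 with dCas12a-VPR (95% interval -0.12 to 0.41, adjusted p = 0.587) and 0.11 with dCasMINI-VPR (-0.16 to 0.38, adjusted p = 0.786).

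Libraries of the compared groups did not overlap for 5 of the 10 members with dCas12a-VPR, SOCS1 and SOCS3 higher in crTet and SOCS4, SOCS5 and STAT3 lower, where 52.6% of all genes did not overlap. With dCasMINI-VPR this held for SOCS6 and STAT3, 2 of 10, against 40.9% of all genes. Between the non-targeting groups it held for 5 members (55.2% of all genes) and between the Tet groups for 4 (44.5%). With 2 libraries a group such separation is common, and the members' shares were near or below those of all genes. The median member change was -0.07 with dCas12a-VPR and 0.02 with dCasMINI-VPR, where the medians over all genes tested were 0.01 and 0.00.

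The wider pathway was read from lists of JAK-STAT genes. Among the other STATs, STAT2, which transduces interferon signals, fell with dCas12a-VPR from 96.4 to 74.4 CPM (-0.37, adjusted p = 0.0216 by edgeR). Its call held in 13 of 17 alternatives, and the losses included leaving out either crNT library. STAT2 was also lower in sgNT than in crNT (-0.93, adjusted p = 8.46e-08) and lower in sgTet than in crTet (-0.86, adjusted p = 7.40e-07), and STAT6 was lower in sgNT than in crNT (-0.47, adjusted p = 0.00789). The STAT6 call held in 14 of 17 alternatives and was lost without sgNT replicate 1 or crNT replicate 2 and with reverse-strand reads. The highest STAT2 mean was that of crNT, the group with the largest unmapped share, and the part of that share was not tested.

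Of 16 receptors that signal through JAK and STAT, 13 were tested, and with dCas12a-VPR 2 fell and none rose, where 2.75% of all genes fell and 3.56% rose. They were IL6ST, the gene of gp130, from 103 to 82.0 CPM (-0.33, adjusted p = 0.0234), and the interleukin 11 receptor IL11RA (-0.87, adjusted p = 0.0378), and the list median was -0.17. The IL6ST call held in 12 of 17 alternatives and was lost without either crNT or either crTet library. The IL11RA change was -0.48 without crNT replicate 1 and -1.18 without crNT replicate 2, since those libraries had 8.71 and 5.37 CPM, and its call was also lost without either crTet library. IL6ST averaged 71.1 CPM in sgNT and 77.6 CPM in sgTet, and was lower in sgNT than in crNT (-0.54, adjusted p = 1.32e-04 by edgeR). Of 7 ligands of the interleukin 6 family 5 were tested and none passed, with a median of 0.05 with dCas12a-VPR. IL6 itself was not tested, with 11 reads over the 8 libraries. None of 9 other brakes on the pathway, such as PIAS proteins and tyrosine phosphatases, and neither PIM2 nor PIM3 passed with either activator. Beside these counts, 6.32% of all genes were called with dCas12a-VPR and 0.795% with dCasMINI-VPR. Of 8 elongin and cullin partners of the SOCS box 1 fell with dCas12a-VPR, against 2.75% of all genes lower. It was the ubiquitin ligase ARIH2, from 166 to 138 CPM (-0.27, adjusted p = 0.0261 by edgeR), which averaged 144 CPM in sgNT and 140 CPM in sgTet. The ARIH2 call held in 11 of 17 alternatives and was lost without either crNT or either crTet library.

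Of 20 other STAT3 targets 14 were tested, and with dCas12a-VPR 4 rose and 2 fell, with a list median of 0.08, where 3.56% of all genes rose and 2.75% fell. FOS, a subunit of the AP-1 factor, rose from 242 to 886 CPM (1.87 ± 0.16, adjusted p = 0.00106), JUNB, its partner, from 52.3 to 90.3 CPM (0.79 ± 0.10, adjusted p = 1.23e-05) and MYC, a growth regulator, from 88.0 to 131 CPM (0.57, adjusted p = 6.82e-05). The 3 calls held in all 17 alternatives. FOS averaged 351 CPM in sgNT and 410 CPM in sgTet, both above its crNT mean. MYC averaged 123 CPM in sgNT and 143 CPM in sgTet, and was higher in sgNT than in crNT (0.48, adjusted p = 1.97e-04 by edgeR). The crNT means of FOS and MYC were thus the lowest of the 4 groups, and the part of the unmapped share in crNT was not tested. FOS, JUNB and MYC are also immediate early genes that many signals induce, and which signal lay behind their rise was not tested. The genes of the list that fell include IL6ST. With dCasMINI-VPR none of the 14 passed, where 0.795% of all genes were called. There JUNB stood lower with the Tet guide (-0.39, 95% interval -0.61 to -0.18, adjusted p = 0.0744 by edgeR). CEBPB, which rose with dCas12a-VPR (0.41, adjusted p = 0.0274), also stood lower (-0.32, 95% interval -0.56 to -0.08, adjusted p = 0.244). FOS and MYC stood higher (0.23 and 0.22, adjusted p = 0.606 and 0.240 by edgeR). In the test of the difference between the guide effects, 1.35% of all genes were called. The guide effects differed between activators for JUNB (-1.18, adjusted p = 8.41e-06), CEBPB (-0.73, adjusted p = 0.0196) and FOS (-1.65, adjusted p = 0.0231), of which JUNB was called in all 16 alternatives, CEBPB in 9 and FOS in 10.

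**Figure D3:**
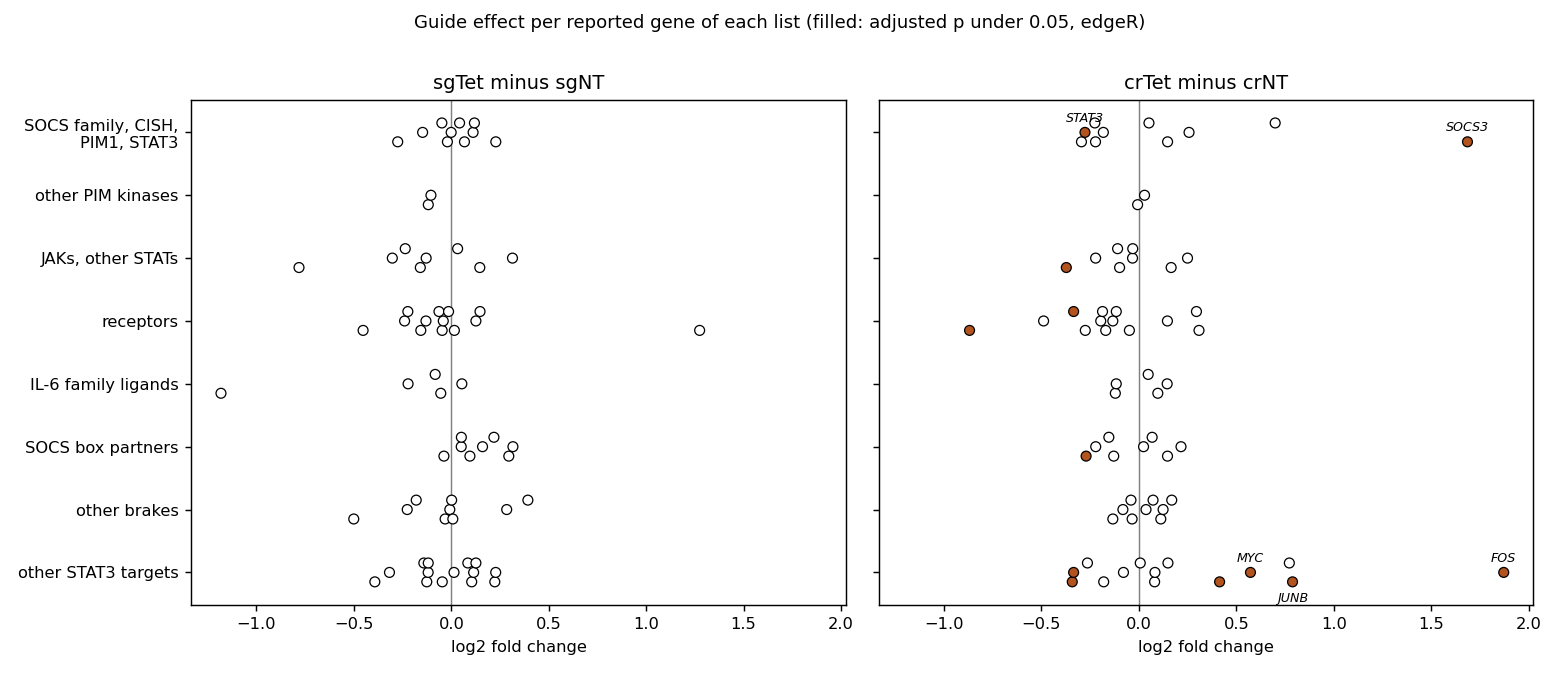
Log2 fold change of the tested genes of each pathway list reported here with the Tet guide, for dCasMINI-VPR and for dCas12a-VPR, filled where the edgeR adjusted p is under 0.05. No gene is filled with dCasMINI-VPR, and with dCas12a-VPR SOCS3 and FOS lie farthest to the right at 1.69 and 1.87.

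Across the 8 libraries, the genes whose log2 CPM most resembled the members with the smallest p over the 4 groups were found among 9693 genes with a symbol and at least 10 CPM. These are descriptions over libraries that share their groups. For SOCS3 they included SPAG7 (Pearson r = 0.973) and the tubulin gene TUBB4A (0.962). SPAG7 averaged 44.9 CPM in the sgNT group, 46.3 in sgTet, 44.1 in crNT and 54.0 in crTet, so the likeness is in the order of the groups and not in the size of the change. For STAT3 they were the ubiquitin ligase PJA1 (0.992), the pseudokinase TRIB3 (0.982) and the apoptosis inhibitor BIRC2 (0.976). TRIB3 averaged 53.4, 45.9, 71.6 and 49.8 CPM in that order of groups. For SOCS1 they were C1orf21 (0.946), SEMA4C (0.938) and IER5 (0.933). Among the members themselves, SOCS1 and SOCS3 had an r of 0.886, SOCS2 and CISH of 0.884, and SOCS1 and SOCS4 of -0.912, whereas SOCS3 and STAT3 had -0.34. The length and GC trend was not removed from these values. The longest transcripts of SOCS1 and SOCS4 are 69.1% and 35.3% GC. In sgTet replicate 1 their fitted trends were opposite, -0.215 and 0.137 (log2).

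**Figure D4:**
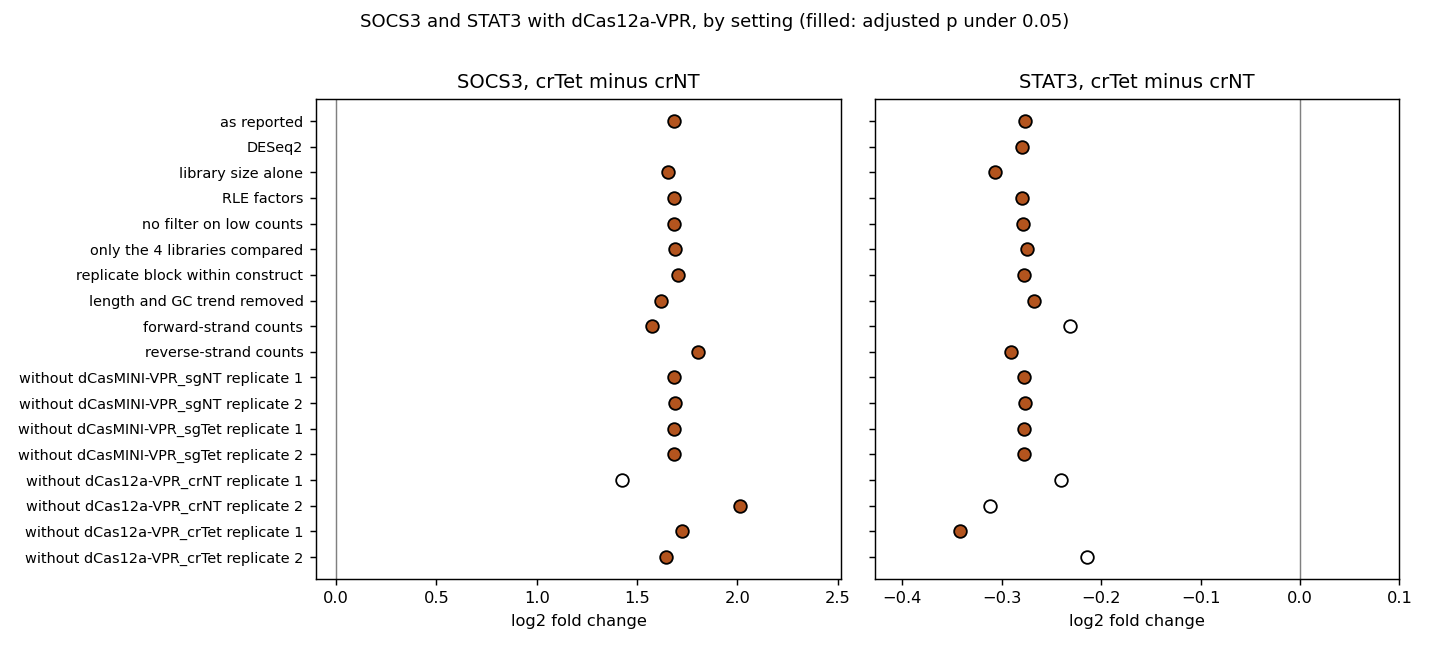
Log2 fold change of SOCS3 and STAT3 between crTet and crNT under each setting of the analysis, filled where the adjusted p is under 0.05; SOCS3 has no DESeq2 point because DESeq2 gave it no adjusted p. SOCS3 lies between 1.43 and 2.01 and STAT3 between -0.34 and -0.21 when single libraries are left out.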

How the data were processed

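Reads were aligned to hg38 with STAR, per the submitters' processing notes (its version is not given in the sources used), and the authors deposited raw counts of reads per gene for each library. The unstranded column was used, since the stranded columns split the reads about evenly. Totals that name no gene held 25.3% to 29.9% of reads and were left out. In R 4.3.3, the robust quasi-likelihood method of edgeR 4.0.16 fitted 1 model of 8 libraries with TMM factors, a filter on low counts and a mean per group. Tests were two-sided, p-values were adjusted by Benjamini-Hochberg over every gene tested and called under 0.05, and DESeq2 1.42.0 was an alternative. The fit was tested on simulated data. A library left alone in its group is assumed to vary like the other groups.

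All 10 members were named whatever their values. From each list up to 3 called genes per comparison, by adjusted p, could be named, with the 3 most similar genes of 3 members. The members and lists were chosen with earlier results of these data known, so their results are not independent evidence. Symbols were found for 42024 gene rows. Lengths are exon unions from GENCODE 29, and promoter sequences are from RefSeq. The removal of a length and GC trend was added after the data were seen. Results of some genes that the rule would name are not reported here.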

Additional observations from a re-analysis of the deposited data

How the results depend on the processing

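Of 829 member values under alternative settings in the 5 comparisons with a direction, 815 stayed on the same side of the threshold, 6 lost a call and 8 gained one, and none changed sign with a call in either fit. The test over the 4 groups is not among them, and there STAT3 lost its call in 1 alternative, without crNT replicate 1. The number of members called with dCas12a-VPR was 2, and it was 1 with DESeq2 (STAT3, SOCS3 having no adjusted p) and 1 with forward-strand reads (SOCS3). With single libraries left out it ranged from 0 to 2, as it did between the Tet groups, from 0 to 1 for the difference of the guide effects and between the non-targeting groups, from 1 to 2 over the 4 groups, and stayed at 0 with dCasMINI-VPR. Between the non-targeting groups 1 member, STAT3, was called with library size alone, 1 in a fit of those 4 libraries, 1 with a replicate block over all groups and 1 after removal of the length and GC trend.

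The replicate numbers come from the labels, which do not pair the libraries, and differences between replicates 1 and 2 correlated across genes by -0.031 to 0.049 between groups. With a replicate block within activator, 2 members were called with dCas12a-VPR, SOCS3 (1.70, adjusted p = 0.00121) and STAT3 (-0.28, adjusted p = 0.0207), and 347 genes differed in guide effect instead of 224.

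Counts over all genes moved more. With dCasMINI-VPR 132 genes were called, 276 with no filter, 84 in a fit of the 4 libraries, 205 with the trend removed and 50 to 1475 with a library left out. With dCas12a-VPR 1049 were called, 1785 in a fit of the 4 libraries, 661 with forward-strand reads and 135 to 1965 with a library left out. The difference gave 224, 450 with no filter, 106 with forward-strand reads and 28 to 1835. The non-targeting groups gave 1276, 2968 in a fit of the 4 libraries and 333 to 2143, the Tet groups 711, 317 in such a fit, 1084 with the trend removed, 444 with forward-strand reads and 331 to 2150, and the 4 groups 2377 and 847 to 4369. Library size alone turned 592 higher and 457 lower with dCas12a-VPR into 432 and 600, 78 and 54 with dCasMINI-VPR into 68 and 80, and 279 and 432 between the Tet groups into 185 and 464, which were 599 and 485 with the trend removed. SOCS1, SOCS3 and CISH rest on few reads, and their intervals leave changes of over 1.5-fold possible where no call was made. The log2 intervals of SOCS7 with dCas12a-VPR (-0.73 to 0.14) and of SOCS6 with dCasMINI-VPR (-0.61 to 0.06) do so as well.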
